A study of Mus musculus with 8 samples.

Results

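The genes described here are 10 genes of the unfolded protein response: Hspa5, Hsp90b1, Calr, Pdia4, Sdf2l1, Dnajb9, Herpud1, Xbp1, Atf4 and Ddit3. They were found by gene symbol, with older synonyms accepted through Entrez identifiers, among the 26866 genes of the deposited array table, where they have 18 of the 56605 probes. The series holds 8 Agilent arrays of a single colour, each read with liver RNA from female mice of strain NFS/sld. The Tx group (4 arrays) had undergone neonatal thymectomy, removal of the thymus, at day 3 of life, and livers were collected 8 weeks later. According to the labels the operation models primary Sjögren's syndrome, in which the immune system attacks salivary and tear glands. The nonTx group (4 arrays) kept the thymus, with no sham operation and no age given. All mice share the NFS/sld strain background. The labels call the 4 replicates of each group independent and do not say that each came from its own mouse, so a p-value here reflects the spread among these samples, which may be partly technical.

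The endoplasmic reticulum is where secreted and membrane proteins fold, and hepatocytes, which secrete most plasma proteins, keep a large one. When unfolded proteins build up there, the sensors IRE1, PERK and ATF6 are released from the chaperone BiP (the product of Hspa5) and signal to the nucleus. ATF6 and the spliced form of XBP1 raise chaperones, folding enzymes and the degradation machinery of the organelle. PERK phosphorylates eIF2a, which lowers translation in general, favours translation of ATF4 and through it raises amino acid genes and Ddit3. In liver the same branches also take part in lipid and glucose metabolism.

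ATF6 and XBP1 act through short promoter elements, so the promoters of the members were searched for them. The window ran from 250 bases before to 50 bases after each annotated start, 300 bases in all, from the RefSeq promoter table of build GRCm38.p6, in which all 10 members were found. The ER stress response element (ERSE) was searched on both strands as CCAAT and CCACG separated by 9 bases. It was present in 3 of 10 members, Hspa5, Hsp90b1 and Calr, against 0.137% of the 27025 genes in the table. The related ERSE-II, searched as ATTGG and CCACG separated by 1 base, was present in 1 member, Herpud1, against 0.0444% of genes. Both elements were already known from genes of this set, so these shares are a description and not a test of enrichment. The stretches that hold these matches are shown because they are the known ATF6 and XBP1 elements of this gene set; capitals mark the match with its spacer, and each is written 5′ to 3′ on the strand of its gene.
Hspa5 (chr2:34772015-34772053, plus strand): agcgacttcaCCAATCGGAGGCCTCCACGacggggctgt
Hsp90b1 (chr10:86705523-86705666, minus strand): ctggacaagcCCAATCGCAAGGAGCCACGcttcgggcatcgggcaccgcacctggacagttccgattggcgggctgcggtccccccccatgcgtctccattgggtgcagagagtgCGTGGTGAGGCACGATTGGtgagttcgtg
Calr (chr8:84847065-84847103, minus strand): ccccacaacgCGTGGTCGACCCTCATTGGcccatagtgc
Herpud1 (chr8:94386367-94386397, plus strand): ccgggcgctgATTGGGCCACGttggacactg

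The Hspa5 match lies 65 to 47 bases before the start, in the forward direction. Hsp90b1 has a forward match 212 to 194 bases before the start and a reverse match 107 to 89 bases before it. The Calr match, in reverse, lies 162 to 144 bases before the start, and the Herpud1 match, forward, lies 52 to 42 bases before it. The XBP1 element searched as TGACGTGG was in 0 of 10 members and in 0.714% of genes, and the ATF4 element searched as TGATGNAAT was in 0 of 10 members and in 1.08% of genes. These are matches of letters only; a window without a match says nothing of whether a factor acts on that gene.

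**Figure D1:**
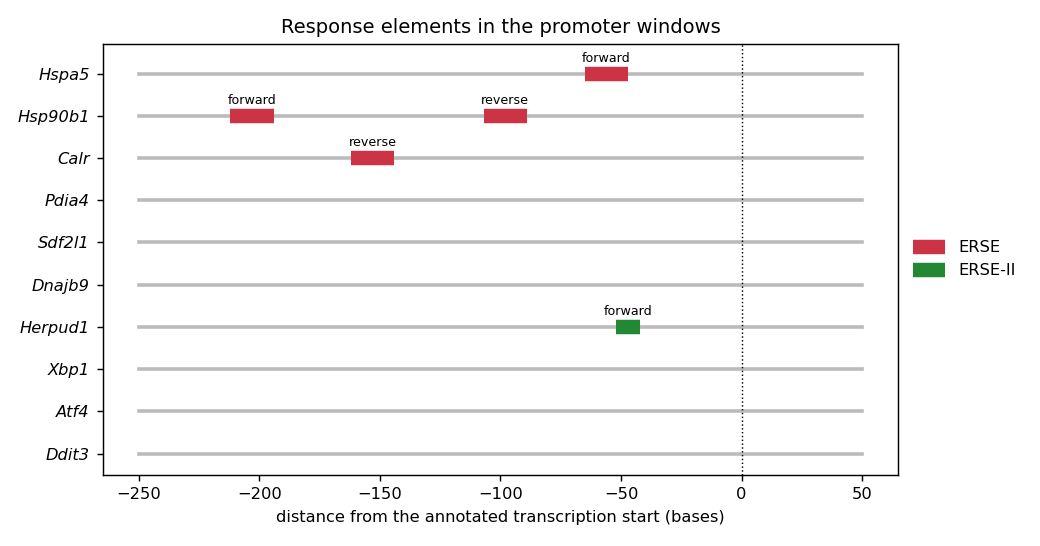
Promoter windows of the 10 genes drawn to scale, with the horizontal axis giving the distance in bases from the annotated transcription start (dotted line). ERSE matches (red) lie in the windows of Hspa5, Hsp90b1 and Calr and the ERSE-II match (green) in that of Herpud1; the other 6 windows hold none of the motifs searched.

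Values are the log2 of the deposited processed signal minus the log2 of the 75th percentile of that array, called the scaled level here; 0 is the level of the 75th percentile. The 75th percentile signal was 274.2 to 301.9 on the nonTx arrays and 225.0 to 330.0 on the Tx arrays, where it was highest on Tx replicate 1. Tx replicate 4 stood apart: its signal for Bpifa2, a secreted protein of salivary gland, was 79616 against 3.01 to 163 on the other 7 arrays, with Smr3a at 12221 and Dcpp1 at 15318. The salivary gland list had 4 of 7 genes tested, and its summed signal was 60.5 to 66.9 times the 75th percentile on nonTx arrays and 57.2 to 678 on Tx arrays. On the other 7 arrays that sum was almost wholly Amy1, whose signal was 12967 to 21066. Amy1 was at 33194 on Tx replicate 4. Results are therefore also given without that array. To a smaller degree nonTx replicate 3 stood apart in genes of exocrine pancreas, whose values are given with the marker lists. The arrays lie on 1 slide, with all nonTx arrays in the first position index and all Tx arrays in the second, so position and group cannot be told apart. The 10 spike-in control RNAs had higher scaled levels in Tx in all 10 cases, by 0.06 to 0.35 with a median of 0.27, and their part in the results below was not tested. Hepatocyte genes were bright on every array, led by Serpina1a and Apoa2, and 12 of 12 were tested, with a median difference of 0.02.

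All 18 probes of the 10 members were well above background on all 8 arrays, and 0 of their spots were saturated. A difference here is the mean scaled level in Tx minus that in nonTx, with the standard error of a limma fit over all 30952 tested probes and p-values adjusted by Benjamini-Hochberg over those probes. Each gene is represented by its brightest probe. None of the 10 members passed an adjusted p of 0.05; their adjusted p-values ran from 0.292 to 0.967. The background for that count is 0% of all tested probes called by limma, with a smallest adjusted p of 0.0589, although 4090 probes had an unadjusted p under 0.05. Of the members, 7 had a higher mean in Tx and 3 a lower one, with a median difference of 0.17 and a range from -0.47 to 0.45. Of the 16495 tested genes, 9278 had a higher mean in Tx and 7217 a lower one, with a median of 0.03. At an unadjusted p under 0.05 there were 3 of 10 members, Calr and Sdf2l1 with the higher mean in Tx and Dnajb9 with the lower, against 14.0% of all tested genes; without Tx replicate 4 there was 1 (Calr), against 9.77%, and without Tx replicate 2 there were 4, against 17.8%. The median difference of the members was above 0 under every alternative tried, from 0.04 to 0.27, and 0.14 without Tx replicate 4. No member had groups that did not overlap, against 8.10% of all tested genes. In bulk tissue, a change in RNA per cell and a change in the number of cells of a type cannot be told apart.

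**Figure D2:**
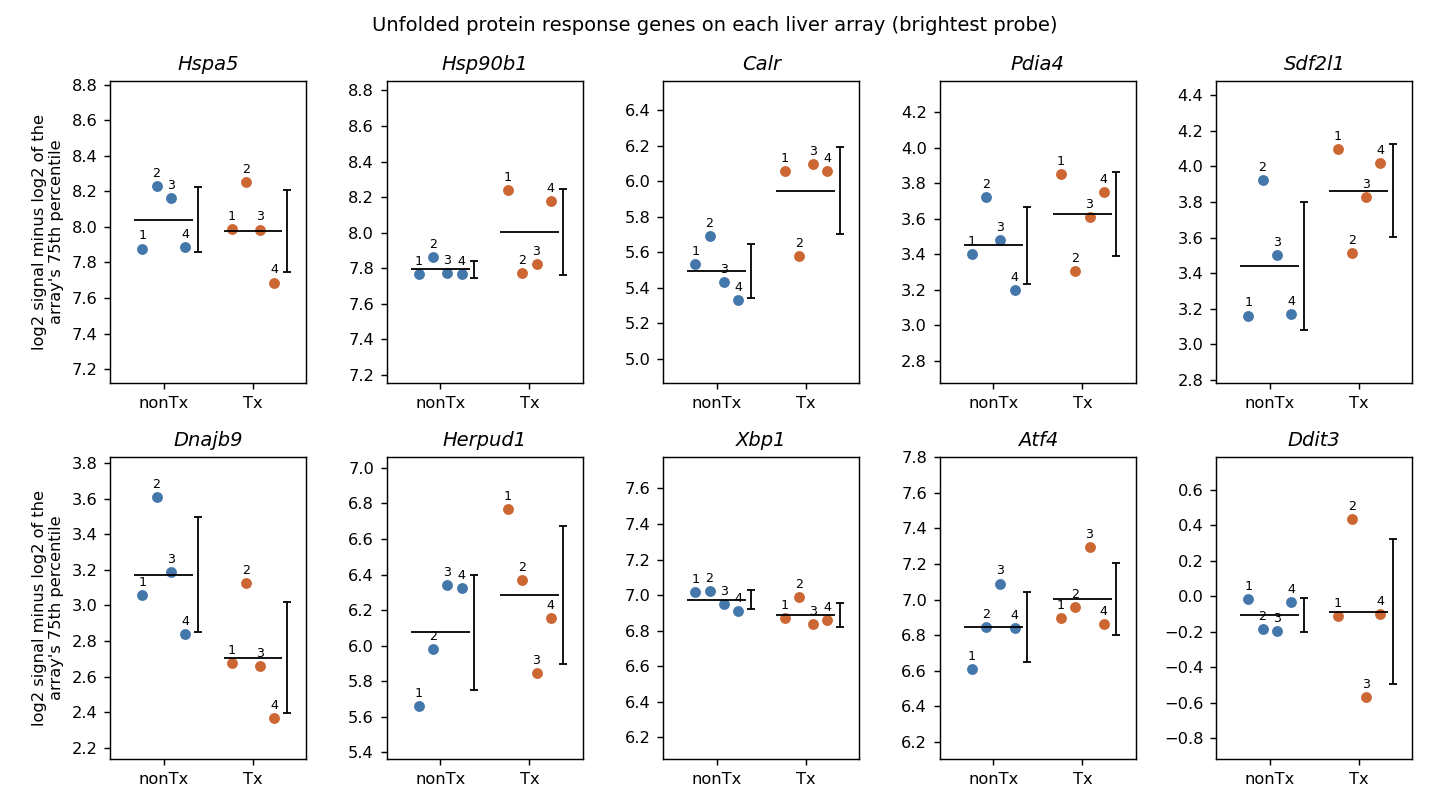
Scaled level of each gene on each array (brightest probe), with nonTx in blue, Tx in orange and the replicate number above each point. Horizontal lines are group means and bars are 1 standard deviation (n = 4 per group), all panels span the same number of log2 units, and the groups overlap in all 10 panels.

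Calreticulin (Calr), a calcium-binding chaperone that holds newly made glycoproteins until they fold, had the largest positive difference of the 10. Its scaled levels were 5.53, 5.69, 5.43 and 5.33 on nonTx replicates 1 to 4 and 6.06, 5.58, 6.09 and 6.06 on Tx replicates 1 to 4. Tx replicates 1, 3 and 4 lay above all nonTx arrays, and Tx replicate 2 lay inside the nonTx range. The mean was 5.50 ± 0.15 in nonTx and 5.95 ± 0.25 in Tx (SD, n = 4), a difference of 0.45 ± 0.13 or 1.37-fold, with a limma adjusted p of 0.292 and a 95% confidence interval of 0.16 to 0.74. The Tx value was the higher in 15 of the 16 Tx and nonTx pairs. Without Tx replicate 2, the lowest Tx array of this gene, the difference was 0.57 with a limma adjusted p of 0.0475. This was the only setting of all those tried in which a member passed, and 137 of 16459 tested genes passed in it. Without Tx replicate 4 the difference was 0.41.

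Sdf2l1, a partner of BiP and of its co-chaperones that keeps unfolded proteins from aggregating, had scaled levels of 3.16, 3.93, 3.50 and 3.17 in nonTx and 4.10, 3.52, 3.83 and 4.02 in Tx. The highest were Tx replicates 1 and 4, and nonTx replicate 2 lay among the Tx arrays. The difference was 0.42 ± 0.18 or 1.34-fold, with a limma adjusted p of 0.368 and an interval of 0.01 to 0.84. It was 0.37 without Tx replicate 4 and 0.54 without Tx replicate 2.

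Hsp90b1 encodes GRP94, the HSP90 chaperone of the endoplasmic reticulum. On the nonTx arrays its scaled levels were 7.77, 7.86, 7.77 and 7.77, a narrow range, and 8.24, 7.77, 7.82 and 8.18 in Tx. Tx replicates 1 and 4 were high and the other two Tx arrays lay within the nonTx range. The difference was 0.21 ± 0.12 (limma adjusted p = 0.437), with an interval from -0.05 to 0.47, and it was 0.15 without Tx replicate 4.

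Pdia4 encodes ERp72, a disulfide isomerase. Scaled levels were 3.40, 3.72, 3.48 and 3.20 in nonTx and 3.85, 3.30, 3.61 and 3.75 in Tx, with Tx replicate 1 the highest and nonTx replicate 4 the lowest. The difference was 0.18 ± 0.14 (limma adjusted p = 0.567), with an interval from -0.14 to 0.49 and wide overlap of the groups, and it was 0.14 without Tx replicate 4.

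Hspa5 encodes BiP, the HSP70 chaperone that binds nascent chains and holds the sensors inactive. Its scaled levels were 7.88, 8.23, 8.16 and 7.89 in nonTx and 7.99, 8.25, 7.98 and 7.69 in Tx. Both the highest and the lowest array were Tx arrays, replicates 2 and 4. The difference was -0.06 ± 0.13, or 0.958-fold (limma adjusted p = 0.852), with an interval from -0.36 to 0.23. Its other two probes gave -0.06 ± 0.16 and -0.15 ± 0.13. The sign was not fixed: leaving out Tx replicate 4 gave 0.04, and scaling to the array median gave 0.04 as well.

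Dnajb9 encodes ERdj4, a co-chaperone that stimulates BiP, binds IRE1 and helps misfolded proteins leave for degradation. It had the largest negative difference of the 10. Its scaled levels were 3.06, 3.61, 3.19 and 2.84 in nonTx and 2.67, 3.12, 2.66 and 2.37 in Tx. Tx replicates 1, 3 and 4 lay below all nonTx arrays, while Tx replicate 2 lay inside the nonTx range, and nonTx replicate 2 was the highest. The mean was 3.17 ± 0.32 in nonTx and 2.71 ± 0.31 in Tx (SD, n = 4), a difference of -0.47 ± 0.19, or 1.38-fold lower in Tx. The limma adjusted p was 0.352 and the interval ran from -0.88 to -0.05. The dimmer probe of the gene gave -0.67 ± 0.21 (limma adjusted p = 0.311), with a correlation of 0.983 between the probes over the 8 arrays. Without Tx replicate 4 the difference was -0.35 with an adjusted p of 0.557.

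Herpud1 encodes a membrane protein of the degradation complex of the endoplasmic reticulum. The brighter probe read 5.66, 5.98, 6.34 and 6.32 in nonTx and 6.77, 6.37, 5.85 and 6.16 in Tx, so that the lowest array was nonTx replicate 1 and the highest Tx replicate 1. The difference was 0.21 ± 0.21 (limma adjusted p = 0.648), and the dimmer probe gave -0.00 ± 0.28. The intervals were among the widest of the set, from -0.25 to 0.67 for the brighter probe and from -0.63 to 0.62 for the dimmer one. Without Tx replicate 4 the brighter probe gave 0.25.

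Xbp1 encodes the transcription factor activated when IRE1 splices its messenger. Whether the probes separate spliced from unspliced messenger was not analysed here. The brightest probe had scaled levels of 7.02, 7.02, 6.95 and 6.91 in nonTx and 6.87, 6.99, 6.83 and 6.86 in Tx, a difference of -0.09 ± 0.07 (limma adjusted p = 0.596), or -0.08 without Tx replicate 4. A dimmer probe had 2.96, 2.99, 2.91 and 2.80 in nonTx and 2.74, 2.56, 2.76 and 2.60 in Tx. On that probe every Tx array lay below every nonTx array, the only such case among the 18 probes, against 7.87% of all tested probes. Its difference was -0.25 ± 0.08 (limma adjusted p = 0.316), close to the -0.24 ± 0.09 of the remaining probe (adjusted p = 0.342). The probes correlated at 0.502 to 0.892 over the arrays. The brightest probe alone turned to 0.02 with scaling to the array median, a setting that also moved the median of all genes to 0.13.

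Atf4 encodes the transcription factor of the PERK branch, which is controlled mainly at translation. On the brighter probe the levels were 6.61, 6.84, 7.09 and 6.84 in nonTx and 6.89, 6.96, 7.30 and 6.86 in Tx, with Tx replicate 3 the highest and nonTx replicate 1 the lowest. The difference was 0.16 ± 0.13 (limma adjusted p = 0.571) and 0.09 ± 0.14 on the dimmer probe, and the brightest probe gave -0.01 after quantile normalization and 0.20 without Tx replicate 4.

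Ddit3 encodes CHOP, a transcription factor that ATF4 induces and that favours cell death under lasting stress. Its brightest probe was near the 75th percentile, at -0.02, -0.19, -0.20 and -0.03 in nonTx and -0.11, 0.43, -0.56 and -0.10 in Tx. The Tx arrays spread on both sides of the nonTx arrays, with replicate 2 the highest and replicate 3 the lowest. The difference was 0.02 ± 0.18 (limma adjusted p = 0.967), with an SD of 0.10 in nonTx and 0.41 in Tx, and it was 0.03 without Tx replicate 4. The other probe gave 0.20 ± 0.13 (limma adjusted p = 0.494), and the probes correlated at only 0.251 over the arrays. The probe rows carry different transcript accessions, and the sign of the brightest probe turned without nonTx replicate 2 or 3, without Tx replicate 2 and with scaling to bright probes.

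**Figure D3:**
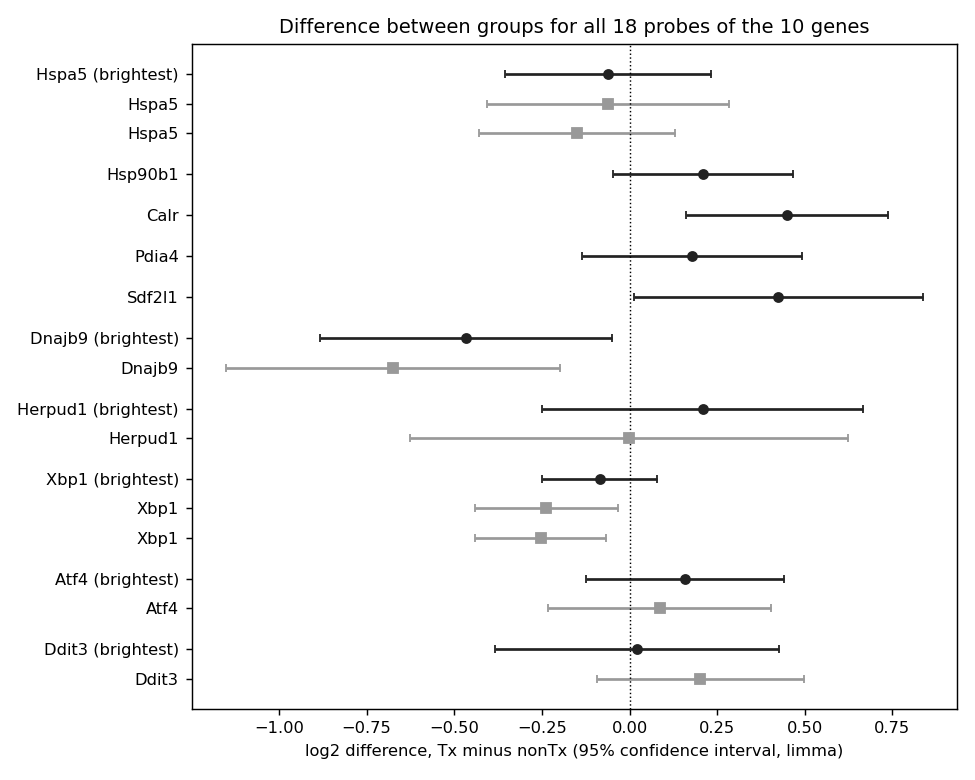
Difference between Tx and nonTx in log2 units for all 18 probes, with 95% confidence intervals from the limma fit (n = 4 arrays per group). Black circles are the brightest probe of each gene and grey squares the other probes; the intervals of Calr, Sdf2l1, both Dnajb9 probes and the dimmer Xbp1 probes lie on one side of 0 before adjustment.

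Correlations between members had both signs. Of the 45 pairs, 23 correlated positively over the 8 arrays, with a median Pearson r of 0.06. Hsp90b1, Calr, Pdia4 and Sdf2l1, the chaperones and folding enzymes other than BiP, formed the strongest block. Pdia4 and Sdf2l1 correlated at r = 0.925 and rho = 0.881 (exact permutation p = 0.002 and 0.007; adjusted over the 45 pairs, 0.103 and 0.081), and at r = 0.859 without the 2 arrays farthest from the median of Pdia4. Calr correlated with Sdf2l1 at r = 0.849 and rho = 0.786 (exact permutation p = 0.016 and 0.028; adjusted 0.132 and 0.209), with r = 0.833 without the 2 farthest arrays. Hsp90b1 and Sdf2l1 ranked the 8 arrays identically (rho = 1, adjusted exact permutation p = 0.002), with r = 0.782 (p = 0.020, adjusted 0.132) and r = 0.873 without the 2 farthest arrays. That identical order rests on near ties. Hsp90b1 was at 7.768, 7.772 and 7.769 on nonTx replicates 1, 3 and 4 and at 7.772 on Tx replicate 2. All 4 genes had their lowest Tx value on Tx replicate 2, where they lay below their own 8-array means by 0.13 (Hsp90b1), 0.14 (Calr), 0.24 (Pdia4) and 0.14 (Sdf2l1).

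Hspa5, Dnajb9 and Xbp1 formed a looser block by their brightest probes, through the pairs with Dnajb9. Hspa5 with Xbp1 reached only r = 0.540 and rho = 0.452 (exact permutation p = 0.169 and 0.267, adjusted 0.575 and 0.602). Without the 2 farthest arrays that pair had r = 0.313. The brightest probes of these 3 genes had their highest Tx value on that same Tx replicate 2. This differed between probes: both dimmer Hspa5 probes were highest in Tx on replicate 1 (5.69 and 5.05), as was Xbp1 probe A_52_P185079 (3.26), and Xbp1 probe A_55_P2739653 had its lowest value of all arrays on Tx replicate 2 (2.56). Xbp1 and Dnajb9 correlated at r = 0.862 and rho = 0.881 (exact permutation p = 0.006 and 0.007; adjusted 0.103 and 0.081), with r = 0.846 without the 2 farthest arrays. Hspa5 and Dnajb9 correlated at r = 0.801 and rho = 0.714 (exact permutation p = 0.016 and 0.058; adjusted 0.132 and 0.324), with r = 0.725 without the 2 farthest arrays and r = 0.922 after the group means were removed. The lowest correlations were between the blocks, at r = -0.658 and rho = -0.524 for Calr with Xbp1 (exact permutation p = 0.089 and 0.197; adjusted 0.447 and 0.602; r = -0.355 without the 2 farthest arrays). That pair was positive within nonTx and negative within Tx (0.915 and -0.986, 4 arrays each, given as a description). The same held for every pair between the blocks, with r from 0.447 to 0.993 within nonTx and from -0.986 to -0.450 within Tx. The blocks were thus apart on the Tx arrays and not on the nonTx arrays. None of the 45 Pearson correlations passed after adjustment, and all arrays share the scaling of their own 75th percentile, which moves genes of an array together.

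**Figure D4:**
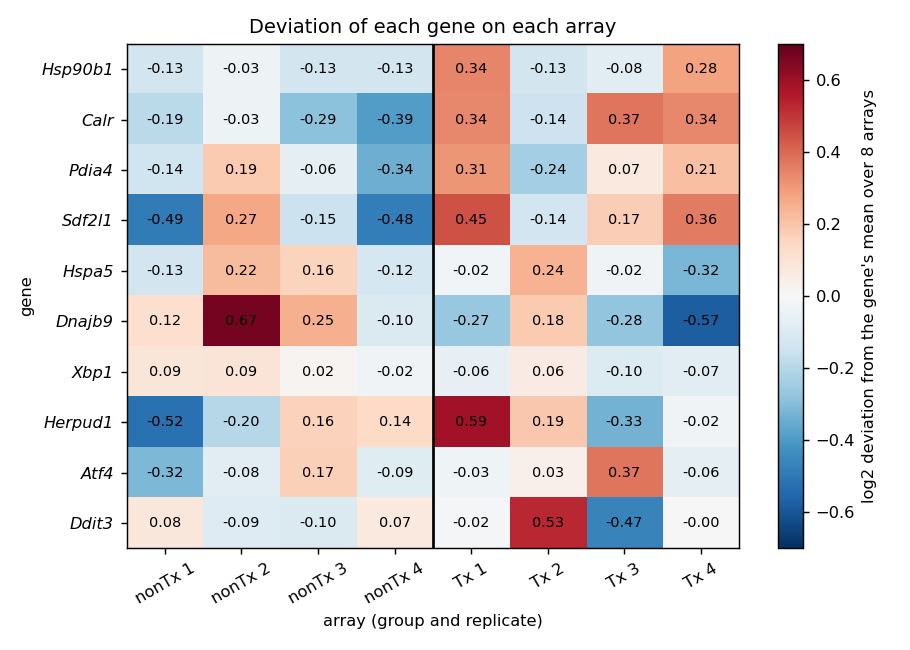
Deviation of each gene (rows) on each array (columns) from its own mean over the 8 arrays, in log2 units, with red above and blue below the mean. The upper 4 genes are low on Tx replicate 2 and high on Tx replicates 1 and 4, and Dnajb9 runs from 0.67 on nonTx replicate 2 to -0.57 on Tx replicate 4.

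The difference between 2 genes on the same array does not depend on the single factor by which an array is scaled. It can still change with background correction or quantile normalization, and no pair test under those settings is given here. The members were also compared in that way, over 45 pairs with a two-sided exact permutation test. With 4 arrays against 4 the smallest p it can give is 0.0286. The pairs that reached it had an adjusted p of 0.321, and 0 pairs passed. In 4 of the 45 pairs the groups did not overlap. Of these, 2 share Dnajb9, so the pairs are not independent. The share over pairs of all tested genes was not computed, so the count of 4 has no background. The 8.10% of single tested genes is not a share of pairs. Dnajb9 relative to Sdf2l1 was lower in Tx by 0.89, or 1.86-fold, and Pdia4 relative to Sdf2l1 changed by -0.25. For Pdia4 and Sdf2l1 the groups were barely apart. As deviations from the mean of that pair, the lowest nonTx array was at -0.088 and the highest Tx array at -0.099. Hspa5 relative to Dnajb9 was higher by 0.41, and Calr relative to Pdia4 by 0.27. With normexp background correction the group differences of Calr, Pdia4 and Sdf2l1 were 0.385, 0.303 and 0.278. These lay closer together than as reported, and that of Pdia4 was no longer below that of Sdf2l1. The Calr to Dnajb9 ratio changed by 0.92, with an exact permutation p of 0.086 (adjusted 0.321), and on Tx replicate 2 it lay within the nonTx range. On every Tx array the brightest Hspa5 probe was higher relative to Dnajb9 than on any nonTx array, although the pair correlated closely within groups. With either dimmer Hspa5 probe in its place the groups overlapped, as Tx replicate 2 lay inside the nonTx range.

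The genes whose levels over the 8 arrays were most like those of Hspa5, among 16481 genes with complete values, were Elp2 (r = 0.967), Slc2a1 (0.950), Klhl25 (0.930), C1galt1 (0.930) and Cks1b (0.926). Dnajb9, the closest member, ranked 90. For Ddit3 they were Tnnt2 (0.977), Slc22a4 (0.954), Il1f8 (0.931), Uimc1 (0.930) and Borcs7 (0.926), and the closest member, Xbp1, ranked 1850 at r = 0.515. These are the neighbours of the brightest Ddit3 probe only. The other Ddit3 probe correlated with it at 0.251 and was not ranked. With 8 arrays and this many genes, such values are a description.

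The other genes of the pathway were taken from lists by role, and in none of the lists did a gene pass the limma adjusted p of 0.05. Beside the counts of higher and lower means below, those over all 16495 tested genes were 9278 and 7217. The sensor list also holds other factors of the ATF6 type, the proteases that activate ATF6, eIF2a and its kinases other than PERK. Its counts are therefore not those of the sensors alone. Of this list 14 of 14 were tested, and 5 had higher and 9 lower means in Tx. The median difference was -0.09, which turned to 0.01 with scaling to the array median and was -0.04 without Tx replicate 4. Eif2ak3, which encodes PERK, had signals of 339, 413, 323 and 320 in nonTx and 286, 284, 190 and 215 in Tx, a difference of -0.37 ± 0.14 (limma adjusted p = 0.329). Creb3l2, a membrane-bound factor of the ATF6 type, differed by -0.60 ± 0.21 (adjusted p = 0.319). It passed without Tx replicate 2, a setting in which 137 of 16459 tested genes passed. Atf6 differed by -0.21 ± 0.12 (adjusted p = 0.467). Ern1, which encodes IRE1, differed by 0.06 ± 0.09 (limma adjusted p = 0.785). At an unadjusted p under 0.05 there were 2 genes of this list, Creb3l2 and Eif2ak3, both lower, a share of 14.3% against 14.0% of all genes; without Tx replicate 4 there was 1, or 7.14% against 9.77%.

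Chaperones and folding enzymes other than the members had mostly higher means in Tx. Of 20 listed, 19 were tested, of which 17 were higher and 2 lower, with a median of 0.20 that stayed above 0 under every alternative, from 0.06 to 0.30. Without Tx replicate 4 these were 18 and 1, with a median of 0.18. Of the 19 tested genes, 8 had their highest value on Tx replicate 1. Counts without that array are not given, and the median was 0.16 to 0.25 with each array left out in turn. Pdia6, a disulfide isomerase, differed by 0.32 ± 0.11 (limma adjusted p = 0.324), Ppib, a prolyl isomerase of the secretory pathway, by 0.30 ± 0.09 (adjusted p = 0.297), and Ero1b, an oxidase that recharges the isomerases, by 0.30 ± 0.11 (adjusted p = 0.324). At an unadjusted p under 0.05 there were 6 of 19, all higher, or 31.6% against 14.0% of all genes. These counts were 5 (26.3% against 9.77%) without Tx replicate 4 and 9 (47.4% against 17.8%) without Tx replicate 2. Genes of translocation and signal peptide cleavage were higher in 16 of 18 cases, with a median of 0.13 that became -0.01 after quantile normalization. In that list Sec11c, a subunit of the signal peptidase, differed by 0.47 ± 0.11 (limma adjusted p = 0.273), Ssr4 of the translocon-associated complex by 0.34 ± 0.12 and the signal peptidase subunit Spcs1 by 0.26 ± 0.09; 5 of 18 had an unadjusted p under 0.05 (27.8% against 14.0% of all genes), and 3 without Tx replicate 4 (16.7% against 9.77%).

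Genes of ER-associated degradation were higher in 13 and lower in 5 of 18 cases, with a median of 0.12 that was 0.01 both with quantile normalization and with scaling to bright probes. Derl1, a part of the exit channel, differed by 0.26 ± 0.09, Selenos, which brings the ATPase that extracts proteins to that channel, by 0.20 ± 0.09 and Edem3, which trims mannose from misfolded glycoproteins, by -0.27 ± 0.11 (limma adjusted p of 0.317, 0.362 and 0.353). The count with an unadjusted p under 0.05 was 5, or 27.8% against 14.0% of all genes. Without Tx replicate 4 it was 1, or 5.56% against 9.77%, which is below the background, and without nonTx replicate 3 it was 2. Of the targets of eIF2a and ATF4, 28 of 30 were tested, with 20 higher, 8 lower and a median of 0.15, which was 0.08 with quantile normalization and 0.05 with scaling to bright probes. Slc3a2, the heavy chain of amino acid transporters, differed by 0.27 ± 0.08 (limma adjusted p = 0.296), the mitochondrial enzyme Shmt2 by 0.23 ± 0.08 and the asparaginyl tRNA synthetase gene Nars by 0.23 ± 0.10; 3 of 28 had an unadjusted p under 0.05, a smaller share than the 14.0% of all genes. There were 3 without Tx replicate 4 and 8 (28.6% against 17.8%) without Tx replicate 2.

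Genes of cell death under ER stress had 4 higher and 6 lower of 10, with a median of -0.02 that became 0.08 with scaling to the array median and was -0.03 without Tx replicate 4. Mcl1 and Bcl2, which protect from death, differed by 0.21 ± 0.07 and -0.22 ± 0.12, and the inhibitor Tmbim6 by 0.07 ± 0.07 (limma adjusted p of 0.324, 0.444 and 0.663). Chaperones of the cytosol and mitochondria, which belong to the heat shock response and not to this pathway, had a median of 0.18, with 15 of 18 higher and 6 at an unadjusted p under 0.05 (33.3% against 14.0% of all genes). That count was 4 (22.2% against 9.77%) without Tx replicate 4 and 3 (16.7% against 11.2%) without nonTx replicate 3, and the median was 0.17 without Tx replicate 4, 0.03 with quantile normalization and 0.08 with scaling to bright probes. Dnajb1 differed by 0.45 ± 0.13, Ahsa1 by 0.28 ± 0.08 and Hspe1 by 0.27 ± 0.10 (limma adjusted p of 0.292, 0.292 and 0.345).

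**Figure D5:**
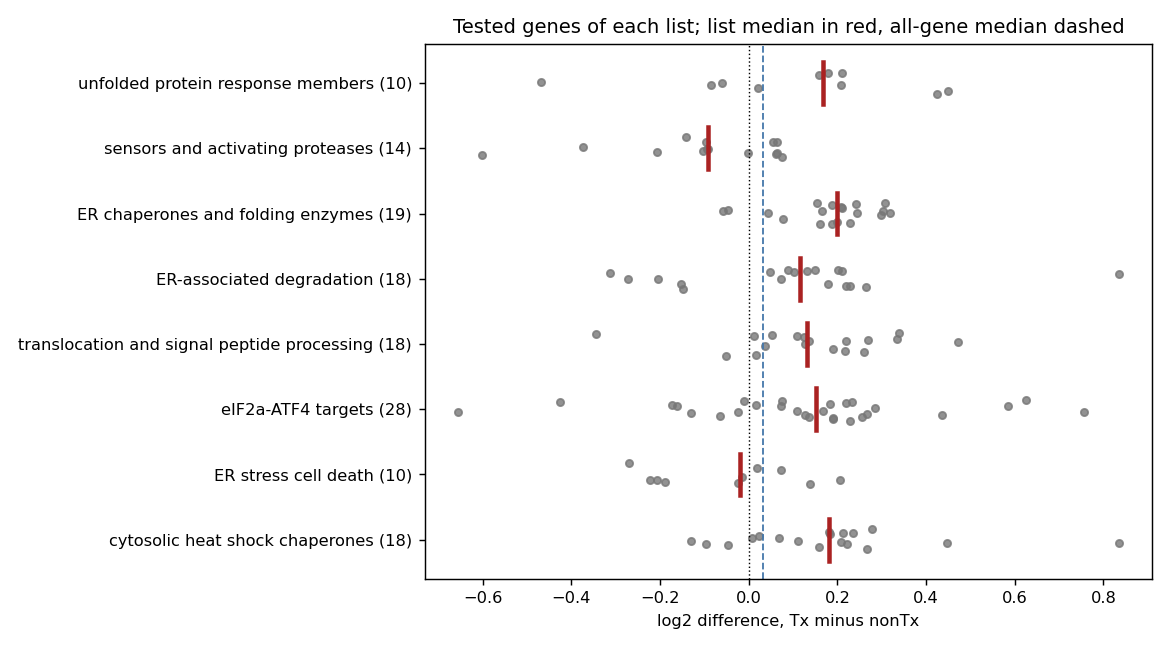
Difference between Tx and nonTx in log2 units for each tested gene (grey points) of the members and of 7 pathway lists, with the number tested in brackets, list medians in red, 0 dotted and the median of all tested genes (0.03) dashed. The chaperone lists lie mostly right of 0, the list of sensors, proteases and eIF2a kinases mostly left, and no point passed after adjustment.

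Secretory cells other than hepatocytes carry high levels of these genes, so their markers are given beside the results. Of 9 plasma cell genes 8 were tested, 5 with higher and 3 with lower means in Tx and a median difference of 0.10; Tnfrsf17 was not well above background on any of the 8 arrays. Jchain, the joining chain of secreted antibodies, had signals of 127, 119, 112 and 130 in nonTx and 407, 420, 173 and 207 in Tx, a difference of 1.36 ± 0.22 (limma adjusted p = 0.103), so that every Tx array lay above every nonTx array. Mzb1, a BiP partner of these cells, differed by 0.53 ± 0.20 (adjusted p = 0.344). The genes that were lower in Tx were Prdm1 at -0.62 ± 0.31, Txndc11 at -0.47 ± 0.15 and Irf4 at -0.28 ± 0.21. The summed signal of the list was 83.5 to 93.3 times the 75th percentile in nonTx and 84.0 to 103.7 in Tx, but it comes almost wholly from the brightest genes, Eaf2 (0.08 ± 0.09) and then Txndc11, and so does not show the level of Jchain or Mzb1.

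Exocrine pancreas genes were tested in 6 of 17 cases, with Cela1 and Cela2a the brightest and summed signals of 35.7 to 55.0 in nonTx and 54.3 to 78.5 in Tx. That sum is mostly Cela1. On nonTx replicate 3 other pancreas genes stood out: Try4 was at 209 against 2.57 to 15.8 on the other arrays, Try5 at 201 against 2.74 to 3.73, Cpa1 at 163 against 3.21 to 13.4, and Cela2a at 839 against 211 to 634. Without that array 6 members were higher and 4 lower in Tx, with a median of 0.19, and 1 had an unadjusted p under 0.05, against 11.2% of all genes. T cell genes were lower in Tx in 7 of 8 cases, with a median of -0.71, summed signals of 5.06 to 5.57 in nonTx and 3.77 to 4.69 in Tx, and Cd3e and Lck the brightest. Kupffer cell genes (11 of 11 tested; Cd5l and Csf1r brightest) had a median of 0.04 and summed signals of 171 to 231 and 163 to 252. Sinusoidal endothelial genes (6 of 6; Stab2 and Clec4g brightest) had a median of -0.03 and summed signals of 110 to 115 and 110 to 134, and hepatocyte genes summed to 6251 to 6825 and 5761 to 6852. The part of these cells in the values of the members was not tested.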

How the data were processed

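Liver RNA (0.5 ug per array, labelled with Cy3 per the labels' protocols) was read on 8 one-colour Agilent arrays. Per the file headers, Feature Extraction 10.7.1.1 subtracted the background to give the processed signal, an intensity; Agilent Feature Extraction 9.1 is the version in the submitters' processing notes. The authors' log2 values in the deposited table could be rebuilt within 0.0016 as intensities divided by the 75th percentile, then centred by probe on the median; the authors' log2 differences there are Tx minus nonTx. Detection flags of the deposited table served as the other measure, and values flagged as compromised (34 among the tested probes) were set to missing.

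Here log2 intensities minus the array's 75th percentile were compared with limma 3.58.1 (lmFit, eBayes with a variance trend) in R 4.3.3, with files read by the package data.table, version 1.17.8; errors are standard errors of that fit unless given as SD. Probes had to be well above background on 3 or more arrays of either group of 4, and p-values were adjusted by Benjamini-Hochberg over 30952 probes, with a threshold of 0.05. The method was checked on simulated data. Symbols were updated through Entrez identifiers (43901 of 46119 matched). Correlations between arrays were 0.977 to 0.994, and their number limits the precision. The file headers name another genome build than that of the promoters, GRCm38.p6.

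The members, lists, tests and alternatives were chosen with earlier results of these data known. Named genes are all members, the 3 tested genes with the smallest p of each pathway list, the 5 genes most like Hspa5 and Ddit3, and the 2 brightest of each marker list. The 2 brightest of the salivary gland list are Amy1 and Bpifa2. The other plasma cell genes, Ern1, Try4, Try5, Cpa1, Smr3a, Dcpp1 and also Bpifa2 were named after their values were seen. The same holds for the counts without Tx replicates 2 and 4 or nonTx replicate 3. Alternatives were normexp background correction (offset 50), quantile normalization, scaling to bright probes or to the array median, the log2 values of the authors, scanner values without outlier spots, other filters, a floor, other variance models, gene means over probes, a replicate block, and each array left out.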

Additional observations from a re-analysis of the deposited data

Results flagged for a closer look

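In 36 groups of 4 arrays, 1 for each member probe and treatment, the gap between an extreme array and its nearest neighbour was divided by the range of the group; above Dixon's 95% critical value the array counts as standing apart, which chance gives in about 1 of 20 groups. This was so in 2 groups. For Hsp90b1, nonTx replicate 2 was the highest of its group with a ratio of 0.956, in a group whose values span only 7.77 to 7.86. For Calr, Tx replicate 2 was the lowest of its group with a ratio of 0.928, at 5.58 against 6.06 to 6.09 on the other Tx arrays; without it the difference between groups was 0.57 in place of 0.45.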

How the results depend on the processing

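Over 21 alternatives, Calr (0.29 to 0.57), Sdf2l1 (0.28 to 0.59), Hsp90b1 (0.05 to 0.31), Pdia4 (0.08 to 0.30), Herpud1 (0.05 to 0.35) and Dnajb9 (-0.61 to -0.32) kept their direction in all of them; adjusted p ran from 0.0475 to 0.515 for Calr, 0.207 to 0.575 for Sdf2l1 and 0.167 to 0.557 for Dnajb9. Signs turned for Atf4 with quantile normalization (-0.00863), for Hspa5 (0.0396) and Xbp1 (0.0154) with scaling to the median, for Hspa5 when nonTx replicate 2 (0.00156) or Tx replicate 4 (0.0359) was left out, and for Ddit3 with scaling to bright probes (-0.0818) and when nonTx replicate 2 (-0.00533), nonTx replicate 3 (-0.00868) or Tx replicate 2 (-0.152) was left out; with arrays left out in turn, Ddit3 ran from -0.152 to 0.180 and Hspa5 from -0.153 to 0.0359. The median of the members was 0.0385 with quantile normalization, 0.269 with scaling to the median, 0.0653 with scaling to bright probes and 0.0747 to 0.195 when 1 array was left out, while the median of all genes was -0.01, 0.13 and -0.07 under those scalings. Scaling to the median turned the medians of the sensor list and of the cell death genes to 0.01 and 0.08.

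The number of probes called by limma, 0 as reported, was 2 with normexp, 6 with scaling to the median, 1 with the authors' log2 values, 1 without the variance trend and 7 with array weights. It ran from 0 to 188 when 1 array was left out, with 188 without Tx replicate 2, 12 without Tx replicate 3 and 3 without Tx replicate 4. Members called ran from 0 to 1, the 1 being Calr without Tx replicate 2. The cause of these changes was not tested. Replicate numbers are shared by the groups; same-numbered arrays deviated together with correlations of 0.05, 0.08, 0.10 and -0.01 only, so the numbers were not taken as pairs, and with the replicate block 1 probe and 0 members were called. A block for slide or scan was not run, since all arrays share 1 slide and 1 scan. Depth on arrays is the signal over background, which all members exceeded on every array.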
